A study of Mus musculus with 20 samples.

Results

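Pachytene/diplotene spermatocytes were set against round spermatids by their N6-methyladenosine (m6A) peaks on RNA, using the peak table that the authors deposited for each of these stages. The tables held 15656 and 10950 peaks, together 26606 of the 84778 peaks listed for the 5 germ cell stages of the series. Peaks of the same RefSeq transcript that overlapped by at least 1 nt were paired, which gave 8894 pairs on 4287 genes, and genes with peaks in 1 of the tables only were listed apart. A gene with at least 1 peak in a table is called marked in that stage. Both stages came from wild-type mice of a C57BL/6 background, with no transgene or treatment, and each had 2 immunoprecipitated and 2 input libraries, 8 of the 20 libraries of the series. The labels do not give the age, the number of animals, how the cells were isolated or whether replicates came from separate animals. The p-values below therefore reflect the variation among these libraries alone, and part or all of it may be technical. RNA was enriched for poly(A), sonicated and pulled down with a polyclonal antibody against m6A, and the eluate and the input were sequenced as stranded libraries.

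m6A is a methyl mark on adenosines inside messenger and noncoding RNA. It is laid down by a complex built on Mettl3 and Mettl14, can be removed by Alkbh5 and Fto, and is bound by reader proteins of the YTH family that act on RNA decay and translation. Pachytene and diplotene spermatocytes are in meiotic prophase, when homologous chromosomes are synapsed and recombined and the X and Y chromosomes are transcriptionally silenced in the sex body. Round spermatids are the haploid cells that follow, which build the acrosome and flagellum and store many mRNAs for later translation.

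The stage labels were checked against marker genes. All but 1 of the 20 pachytene/diplotene marker genes were marked in the pachytene/diplotene table, and 14 of the 25 round spermatid markers were marked in the round spermatid table. The opposite tables held many of them as well, with 16 of the 20 pachytene/diplotene markers marked in round spermatids and 9 of the 25 round spermatid markers marked in pachytene/diplotene, so the marks hardly separate the labels. None of the 24 Leydig, peritubular, endothelial and macrophage markers had a peak in either table. Of 24 Sertoli cell markers 1 was marked in both tables and 1, Clu, in round spermatids only, and of 25 spermatogonia markers Id4 was marked in pachytene/diplotene only and Uchl1 in round spermatids only. A peak needs an expressed RNA and a mark, so the peak tables give no cell counts, and these checks cannot tell fewer cells of a type from unmarked RNA. Transcript levels were not analysed here. Wherever a gene had no peak, absence of the mark and too little RNA to list a peak cannot be told apart.

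The immunoprecipitated libraries had 12395589 and 13573729 mapped reads in pachytene/diplotene and 15292425 and 22402907 in round spermatids, and the inputs had 9686256 to 15436221. Values are log2 enrichments of immunoprecipitate over input as deposited, 1 per replicate. Pachytene/diplotene values were higher at all but 77 of the 8894 pairs. Over the pairs the column medians were 3.47 and 2.95 in pachytene/diplotene and 1.80 and 1.72 in round spermatids, and the median difference was -1.43. The lowest listed mean was 1.55 in the pachytene/diplotene table and 0.61 in the round spermatid table, so weaker peaks could enter the round spermatid list. How the libraries were scaled is not given in the sources used here, and a general loss of the mark and a lower yield of the pull-down cannot be told apart. Differences were therefore taken after centring each column on its median over the pairs: "higher" and "lower" in round spermatids mean relative to the general fall.

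The clearest contrast between the stages lay on the sex chromosomes. Of 130 X-linked genes marked in either stage, 124 (95.4%) were marked in round spermatids only, 4 in both and 2 in pachytene/diplotene only. On the autosomes 7786 genes were marked in either stage, of which 1081 (13.9%) were in the round spermatid table only, 2322 (29.8%) in the pachytene/diplotene table only and 4383 in both. On single autosomes the round spermatid share ran from 10.3% on chromosome 17 to 21.5% on chromosome 14. All 18 marked Y-linked genes were in the round spermatid table only. For all chromosomes together the shares were 15.4% in round spermatids only and 29.3% in pachytene/diplotene only, of 7938 genes.

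These shares come from 1 peak list per stage, so they have no replicate error and no test. With the same number of strongest peaks taken from each table, 124 of 129 X-linked genes (96.1%) were still in round spermatids only, against 22.1% of autosomal genes. With both tables held to the higher of the lowest listed values, 74 of 80 X-linked genes (92.5%) were, against 8.70% of autosomal genes. The earlier stages had many marked X-linked genes, 333 in undifferentiated spermatogonia, 253 in type A1 spermatogonia and 282 in preleptotene spermatocytes. The number was 6 in pachytene/diplotene and 128 in round spermatids. Of the 124 X-linked genes of round spermatids only, 47 were marked in all 3 earlier stages, 66 in at least 1 and 58 in none.

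**Figure D1:**
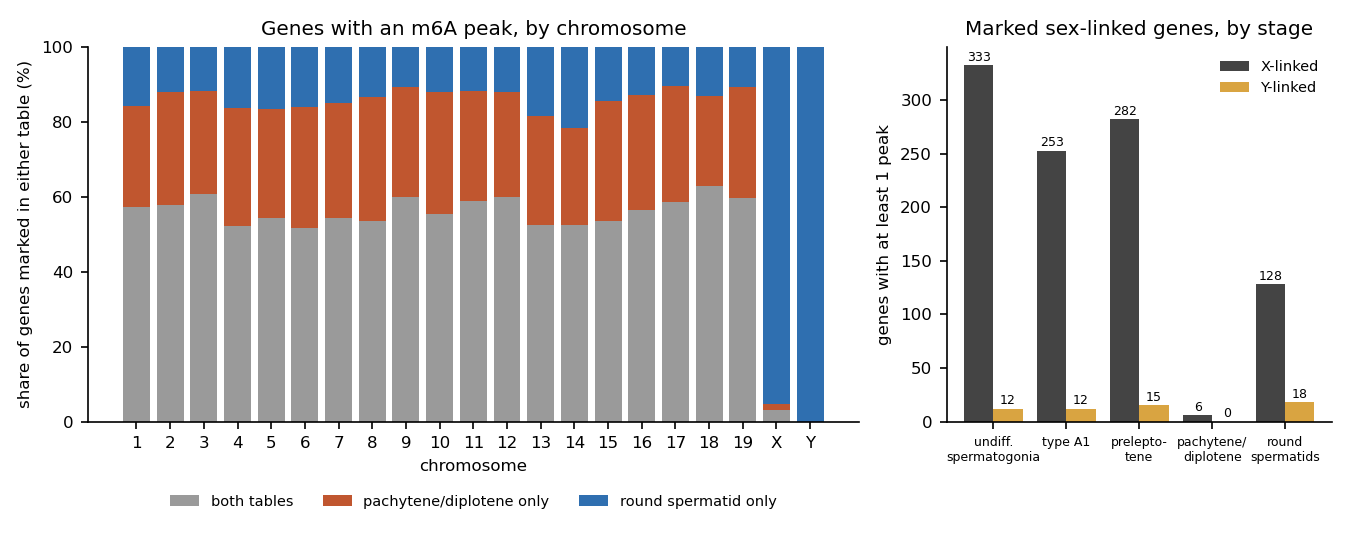
Left, share (%) of the genes marked in either table that were in both tables, in pachytene/diplotene only or in round spermatids only, for each chromosome. Right, number of X-linked and Y-linked genes with at least 1 peak in each of the 5 stages. The X and Y bars are almost wholly round spermatid only (124 of 130 and 18 of 18 genes), and the marked X-linked genes number 282 in preleptotene, then 6, then 128 in round spermatids.

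At the 173 peaks of the 124 X-linked genes the round spermatid medians were 1.66 and 1.56 in the 2 replicates. The enrichment in pachytene/diplotene at the same sites, recovered from the deposited ratio, had medians of 0.89 and 0.43. At the 1640 peaks of autosomal genes in round spermatids only, the round spermatid medians were 1.65 and 1.52 and those of pachytene/diplotene 1.44 and 1.01. The round spermatid medians on the X and on the autosomes were thus close to each other, and the pachytene/diplotene medians were lower on the X. A pachytene/diplotene value at or above the lowest listed there was found at 22 of the 173 X-linked peaks (12.7%) and at 581 of the 1640 autosomal ones (35.4%). A deposited value of exactly 0 in at least 1 pachytene/diplotene replicate occurred at 20 X-linked peaks (11.6%) and at 6.83% of the autosomal ones. Here and below, the read depth behind low or exactly 0 values is unknown, and they may rest on few or no reads. The strongest peak of the gene lay at the start codon in 42 of the 124 X-linked genes and in 145 of the 1081 autosomal ones.

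The strongest X-linked gene of round spermatids was Cul4b, which encodes a scaffold of cullin-RING ubiquitin ligases (chromosome X, 38531616 to 38576196, mm10). Its start codon peak stood at 4.81 and 4.21 in round spermatids and at 3.04 and 0.87 in pachytene/diplotene. Both round spermatid values lay above both pachytene/diplotene values, which were far apart. Rps6ka6, a ribosomal S6 kinase gene (chromosome X, 111387837 to 111538097), had a coding peak at 3.43 and 4.20, against 0.49 and 0 in pachytene/diplotene. Usp9x, a deubiquitinase gene, had a coding peak at 3.41 and 2.97, against 1.65 and 0.04. For these genes too the stages did not overlap.

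Other X-linked genes of round spermatids belonged to the chromatin and ubiquitin lists (3 and 4 members). Phf8, a histone demethylase gene, had 3 peaks, the strongest in the 5′ UTR at 2.63 and 3.10. Both pachytene/diplotene values there were exactly 0 and may hold no measured enrichment. Kdm5c, which encodes a demethylase of histone H3 lysine 4, had a stop codon peak at 2.85 and 2.87 against 1.47 and 0.22. Huwe1, a HECT-type ubiquitin ligase gene, carried 5 peaks, the strongest in the coding sequence at 2.87 and 2.36 against 1.55 and 1.03. Ube2a, a ubiquitin-conjugating enzyme gene, had a start codon peak at 2.08 and 2.85 against 0.42 and 0.58. In all 4 genes both round spermatid values exceeded both pachytene/diplotene values. Not every X-linked gene showed this separation. Scml2, the other X-linked member of the chromatin list, had a coding peak at 2.04 and 1.76 against 3.14 and 0.55, values that overlap. At the coding peak of Taf7l, a TFIID subunit gene of germ cells, the values were 1.99 and 2.27 in round spermatids and 2.10 and 1.58 in pachytene/diplotene, and at the start codon peak of Akap4, the main fibrous sheath protein of the sperm tail, they were 1.54 and 0.92 against 1.89 and 1.98. Of the 173 peaks, 150 (86.7%) had a higher mean in round spermatids without any centring, against 67.6% of the autosomal ones.

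The 6 X-linked genes marked in pachytene/diplotene were Magt1 and Gm5643, in that table only, and Vsig1, Car5b, Chic1 and Jpx, in both. Vsig1, an immunoglobulin-domain membrane protein gene (chromosome X, 140907608 to 140939472), went against the general fall, with a coding peak at 3.17 and 2.51 in pachytene/diplotene and at 4.40 and 3.63 in round spermatids. The centred difference was 2.63 (SE 0.29, adjusted p = 0.00115, limma with Benjamini-Hochberg adjustment). The 3′ UTR peak of Car5b, a mitochondrial carbonic anhydrase gene, stood at 4.18 and 3.72 and then at 3.08 and 2.97. Jpx, a noncoding RNA gene of the X inactivation centre, had 3.25 and 2.89 and then 2.88 and 2.28. At Vsig1 and Car5b the stages did not overlap and, before centring, ran opposite ways. Jpx was called higher relative to the general fall (0.97, adjusted p = 0.0409, limma), and Car5b was not called (0.53, adjusted p = 0.177).

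On the Y chromosome the round spermatid peaks were weak, with a median of 1.39 for the strongest peak of each gene. Eif2s3y, the Y-linked gamma subunit of initiation factor eIF2, led with a start codon peak at 1.72 and 2.22, against -0.09 and 0 in pachytene/diplotene. Ssty2, a spindlin-like gene of spermiogenesis, had 1.91 and 1.70 against 1.49 and 0.36, and the zinc finger gene Zfy1 had 1.96 and 1.56 against 0 and 0.49. These 3 genes did not overlap between the stages. Over all Y-linked genes 13 of 19 peaks (68.4%) had the higher mean in round spermatids, and others ran the other way, such as Gm20867 with 1.63 and 1.54 against 2.35 and 1.69 in pachytene/diplotene. Of the 18 genes, 13 are predicted genes named Gm, and 4 had exactly the values of another gene in the list. Y-linked multicopy genes share sequence, and reads of near-identical copies may be split or counted more than once, so the number of distinct marked genes on the Y is uncertain. On the X 4 of the 124 genes had values identical to those of another.

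Most paired peaks were not called apart from the general fall, and a minority were. Not being called does not show that a site kept its proportion. Limma called 410 pairs higher in round spermatids (4.61% of 8894) and 775 lower (8.71%), at an adjusted p of 0.05. Round spermatid values also had a smaller spread, with column SDs of 0.71 and 0.72 against 0.98 and 0.98 in pachytene/diplotene. With the columns scaled to a common SD the calls were 421 higher (4.73%) and 443 lower (4.98%), and 331 higher and 435 lower pairs were called in both fits. Without centring 6 pairs (0.0675%) were called higher and 7902 (88.8%) lower. The balance of higher and lower calls thus depended on how the columns were put on a scale. Leaving out 1 replicate at a time gave 137 to 397 higher and 351 to 693 lower calls, both lowest without round spermatid replicate 1. With 2 replicates a side an exact permutation test could not pass the threshold, so each call rests on limma's pooled spread.

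**Figure D2:**
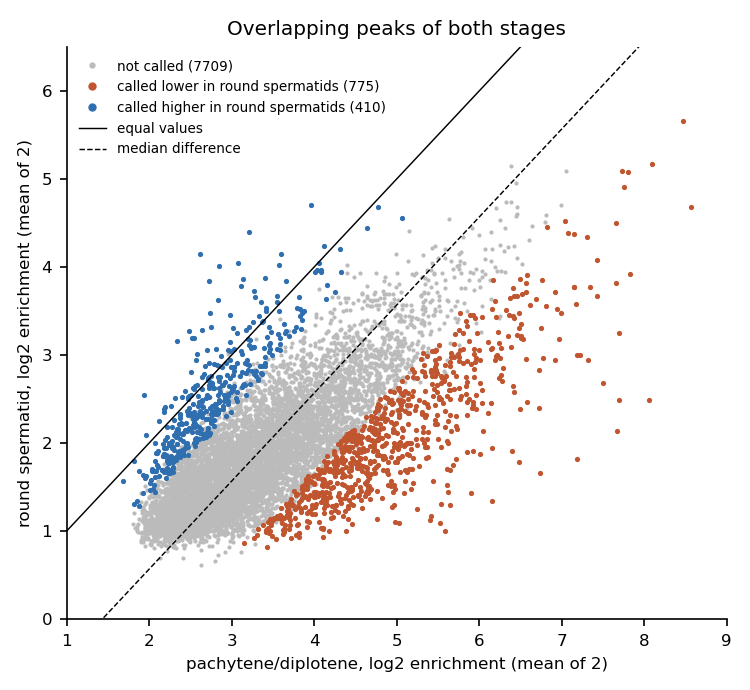
Each point is 1 of the 8894 pairs, with its mean log2 enrichment over 2 replicates in pachytene/diplotene (x axis) and round spermatids (y axis). The solid line marks equal values and the dashed line the median difference of -1.43. Of the 410 pairs called higher, 76 lie above the solid line, and most are smaller falls below it. Their median means are 2.70 (pachytene/diplotene) and 2.42 (round spermatids). The 775 pairs called lower start at a pachytene/diplotene mean of 3.15.

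Pairs exist only where both tables list a peak, and this limits which sites could be called. The lowest pachytene/diplotene mean among pairs called lower was 3.15, and 4614 of the 8894 pairs were at or above it. Sites that fell below the round spermatid list are among the genes and peaks of pachytene/diplotene only. Some pairs overlapped at their edges and may hold neighbouring sites. In 897 pairs (10.1%) the overlap was under 0.5 of the shorter peak, and these accounted for 137 of the 410 higher calls (33.4%) and 121 of the 775 lower calls (15.6%). The deposited ratio compares the stages at 1 and the same site. It comes from the same libraries, so it checks the pairing and not the difference. Over all pairs that overlapped by at least 0.5 of the shorter peak it pointed the same way as the pair, after centring, in 7195 of 7997 (90.0%), and over those with less in 46.5%. Among called pairs with the larger overlap, it pointed the same way at both peaks in 270 of 273 higher and 651 of 654 lower calls. Among those with a smaller overlap it did so in 81 of 137 and 86 of 121.

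The ends of the list were described by the 8 lowest and 8 highest called pairs, 1 a gene, among those whose centred replicate values did not overlap between stages, predicted genes left out. At the lower end stood RNAs with strong marks in pachytene/diplotene. Norad, a long noncoding RNA that binds Pumilio proteins (chromosome 2, 156388063 to 156392979), had 8.25 and 7.85 in pachytene/diplotene and 1.79 and 3.19 in round spermatids. The centred difference was -4.10 (SE 0.41, adjusted p = 0.000758, limma). Mybl1, which encodes A-MYB, the transcription factor that drives many pachytene genes and piRNA precursors (chromosome 1, 9667407 to 9700439), had a start codon peak at 7.40 and 6.99 and then at 1.81 and 1.83. Its difference was -3.91 (SE 0.24, adjusted p = 0.000156, limma), and the replicates of each stage lay close together. The overlap of this pair was 135 nt, and at the same sites the deposited ratios gave uncentred differences of -4.23 and -2.89.

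Slain2, a microtubule growth factor gene, went from 6.82 and 6.66 to 1.07 and 2.25 at its start codon, a centred difference of -3.63. Psme3, a proteasome activator gene, went from 6.69 and 6.29 to 1.61 and 1.96, a centred difference of -3.24. Topaz1, needed for male meiosis, went from 6.53 and 6.27 to 1.69 and 2.14, a centred difference of -3.03. Ptchd3, Hnrnpa0 and Ubtd2 completed the 8 lowest, at -4.07, -3.37 and -3.13. Their adjusted p (limma) ran from 0.000156 to 0.00426. In 4 of the 8 the peak lay at the start codon.

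At the upper end 6 pairs were called higher even without centring, in Ttll7, Ube2h, Vsig1, Paip2b, Fam53c and Psmd2. Paip2b, which encodes an inhibitor of the poly(A)-binding protein (chromosome 6, 83806058 to 83831741), had a stop codon peak at 2.93 and 2.51 in pachytene/diplotene and at 4.04 and 3.64 in round spermatids. Its centred difference was 2.57 (SE 0.25, adjusted p = 0.000751, limma), and the stages did not overlap. Ttll7, a tubulin polyglutamylase gene (chromosome 3, 146852184 to 146984009), had 3.15 and 3 and then 3.74 and 4.36 in the 5′ UTR, a centred difference of 2.44 (SE 0.30).

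Ube2h, a ubiquitin-conjugating enzyme gene, had 3.17 and 3.26 in its 5′ UTR and then 3.40 and 5.40, with wide round spermatid replicates and an SE of 0.54 on a centred difference of 2.64. Gnptab, whose product tags lysosomal enzymes, had 2.42 and 2.54 and then 3.30 and 3.25, a centred difference of 2.25. Its 4 values did not overlap between stages. The other 3 of these 8 rest on edge overlaps. The pair of Fam53c overlapped by 3 nt, that of Psmd2 by 2 nt and that of Cacna1h by 12 nt. Before centring the differences between the paired peaks were 1.53, 0.83 and 0.80. At the same sites the deposited ratios gave 0.78 and 0.55 for Fam53c, but -0.99 and -1.47 for Psmd2 and -0.43 and -1.05 for Cacna1h, where the rise between the paired peaks was not seen.

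**Figure D3:**
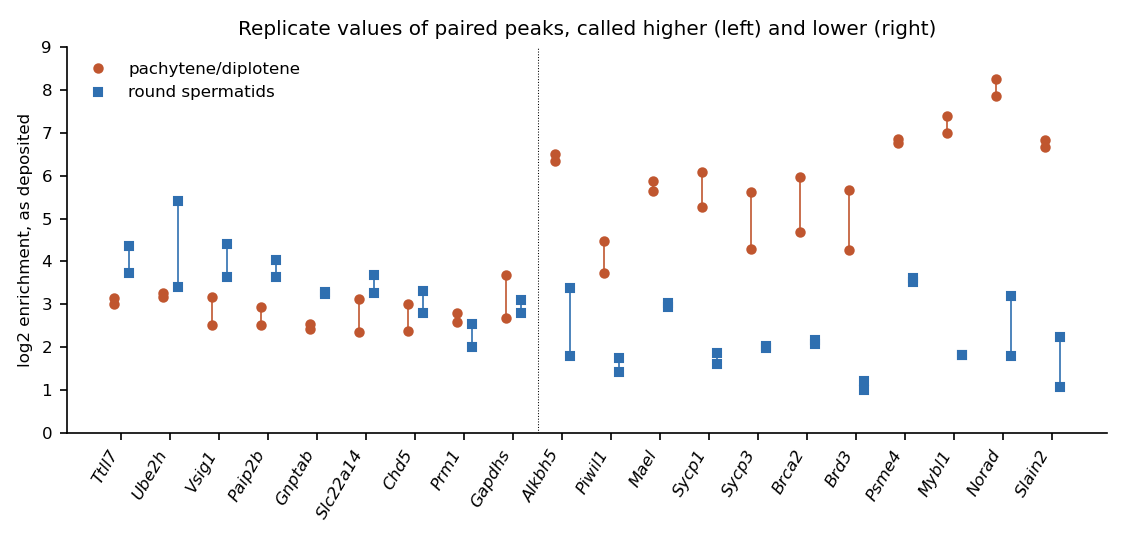
Deposited log2 enrichment of each replicate (points, joined by a line within a stage) for paired peaks called higher (left of the dotted line) or lower (right) in round spermatids after centring. At Paip2b the round spermatid values of 4.04 and 3.64 lie above those of pachytene/diplotene, at Prm1 they lie below them although the pair was called higher relative to the general fall, and at Mybl1 they differ from those of pachytene/diplotene by -5.37 on average.

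Where the peak lay on the transcript went with its direction. Of 926 pairs at start codons, 147 (15.9%) were called lower and 27 (2.92%) higher, with a median centred difference of -0.17. Of 750 pairs in 3′ UTRs, 59 (7.87%) were lower and 58 (7.73%) higher, with a median of 0.16. All 8894 pairs had a median of 0.02. Coding (5735 pairs) and stop codon pairs (981) lay near it, at 0.05 and 0.03. In 5′ UTRs 45 of 302 pairs were lower and 18 higher, and on noncoding RNAs 24 of 200 were lower and 4 higher. With columns scaled to a common SD the start codon pairs kept more lower calls (95, 10.3%) than higher ones (28) and a median of -0.16, and the 3′ UTR pairs had 35 lower and 55 higher calls and a median of 0.14. The 5′ UTR excess did not hold under that scaling, with 20 lower and 18 higher calls.

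The same order was seen inside single genes. In 368 genes with pairs at both places the start codon pairs were lower than the coding pairs in 249 (67.7%), with a median gap of -0.24 over both replicates, -0.25 in replicate 1 and -0.28 in replicate 2. Against stop codon pairs of the same gene, start codon pairs were lower in 76 of 109 genes, with a median gap of -0.27. The 3′ UTR pairs were lower than coding pairs in 105 of 261 genes (40.2%), a median gap of 0.13. Stop codon and coding pairs were level, with a median gap of 0.00 over 408 genes. Pairs overlapping by at least 0.5 of the shorter peak gave 14.1% lower and 2.05% higher calls at start codons. At every pachytene/diplotene peak, paired or not, the deposited ratios gave 10.9% lower and 1.44% higher calls and a median of -0.21 for 1802 start codon peaks, against 7.06%, 1.71% and -0.01 for all 15514 peaks. At every round spermatid peak the start codon median was -0.15 against -0.05 for all, but higher and lower calls were equal at 17.3%. All round spermatid peaks together had 16.1% higher and 10.9% lower calls. In 5′ UTRs the ratios gave 11.4% lower and 2.71% higher calls and a median of -0.25 at pachytene/diplotene peaks. At the 405 round spermatid peaks in 5′ UTRs, 81 calls were lower and 69 higher, with a median of -0.23. By the ratios, the 5′ UTR medians were thus lower than the start codon medians.

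**Figure D4:**
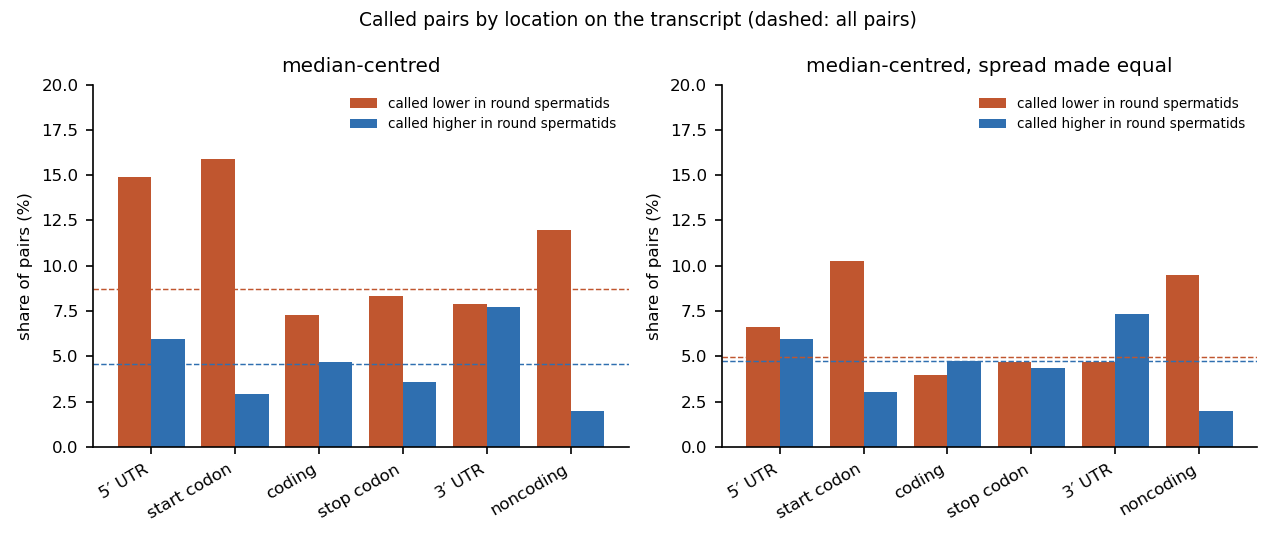
Share (%) of pairs called lower or higher in round spermatids by location of the pachytene/diplotene peak, after centring (left) and with the spread of the columns made equal as well (right). Dashed lines give the shares over all 8894 pairs. Start codon pairs have the most lower calls in both panels (15.9% and 10.3%), and 3′ UTR pairs the most higher calls (7.73% and 7.33%).

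By gene, 351 genes had a pair called higher and 591 a pair called lower, 46 and 127 of them at 2 or more pairs. The demethylase gene Alkbh5 had 6 of 7 pairs called lower, and Hipk3, Sec63 and Tktl2, a transketolase-like gene, had 5 each. With scaled columns 2 lower calls remained in Alkbh5, 5 in Hipk3, 3 in Sec63 and 4 in Tktl2. Some pairs of Alkbh5 and of Tktl2 shared a peak, so these counts are not of separate sites. A lower pair of Alkbh5 that overlapped by 17 nt was among the 2 kept with scaled columns. Its round spermatid peak, paired over 120 nt with another peak, was not called (centred difference -0.61, adjusted p = 0.200, limma).

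Pairs on genes of the m6A machinery were called lower far more often than higher, most of them in 1 gene. For this and the lists below, the background is all 7938 genes marked in either table. Of those, 29.3% were in pachytene/diplotene only and 15.4% in round spermatids only. Of the 25 machinery genes 13 were marked in both tables, 7 in pachytene/diplotene only and 1 in round spermatids only. Of their 35 pairs 8 (22.9%) were called lower and 1 higher, against 8.71% and 4.61% of all pairs. The median was -0.24 against 0.02 for all pairs. Of the 8 lower calls 6 were those of Alkbh5, where some pairs shared a peak. With scaled columns 2 were lower and none higher. The leading Alkbh5 pair, at the start codon (chromosome 11, 60537683 to 60558512), had 6.51 and 6.35 in pachytene/diplotene and 1.79 and 3.37 in round spermatids, a centred difference of -2.39 (SE 0.45, adjusted p = 0.00901, limma). The round spermatid replicates were wide apart.

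Among the writers, Mettl14 had a start codon peak at 4.33 and 3.52 in pachytene/diplotene and no listed peak in round spermatids, where the same site stood at 1.22 and 1.32. Wtap and Zc3h13, subunits of the writer complex, and the associated ubiquitin ligase gene Cbll1 were also marked in pachytene/diplotene only. Mettl3 had no peak in either. Among the readers, Ythdf1 had 4.07 and 2.41 and then 1.0 and 1.24, and the meiotic helicase gene Ythdc2 had 2.89 and 1.59 and then -0.26 and -0.07, both without a listed peak in round spermatids. A pair of Ythdf3 was called lower (4.76 and 4.19, then 2.20 and 2.08), and so was one of Igf2bp3, and both calls were lost with scaled columns (adjusted p = 0.129 and 0.113, limma). Ythdf2 was not called (centred difference 0.84, adjusted p = 0.0658, limma), nor were the demethylase gene Fto (0.53, adjusted p = 0.215) and the nuclear reader gene Ythdc1 (-0.67, adjusted p = 0.268). Igf2bp1 was the 1 gene with a peak in round spermatids only, at 1.87 and 2.13 against 1.07 and -0.08.

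Of 42 genes of the synaptonemal complex, chromosome axis and recombination, 15 were marked in both tables, 12 in pachytene/diplotene only and 1 in round spermatids only. Of their 34 pairs 5 (14.7%) were called lower and none higher, against 8.71% and 4.61% of all pairs, and the median over these pairs was 0.04, close to the 0.02 of all pairs. Sycp1, the transverse filament of the synaptonemal complex (chromosome 3, 102818499 to 102936100), had a start codon peak at 6.09 and 5.27 and then at 1.87 and 1.62, a centred difference of -2.48 (SE 0.25, adjusted p = 0.000844, limma). Sycp3 and Sycp2, of the axis, were at -1.51 each, although the Sycp2 pair overlaps by 59 nt and the same peak paired with another over 146 nt was not called (-0.86, adjusted p = 0.149, limma), and the recombination mediator gene Brca2 at -1.74, from 5.96 and 4.68 to 2.07 and 2.17. The checkpoint kinase gene Atr made the fifth, and lost its call with scaled columns (adjusted p = 0.198, limma). None of these overlapped between the stages before centring. That adds little to the calls, since pachytene/diplotene values were higher at all but 77 of the 8894 pairs.

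Genes that lost their listed peaks included the MutS homologs Msh4 (4.82 and 4.86, then 0.12 and 1.96) and Msh5 and the axis genes Hormad1 and Hormad2. Mlh3, a MutL homolog of crossovers, had 9 peaks in pachytene/diplotene and none in round spermatids. Brca1 went the other way, with a coding peak at 3.39 and 3.03 in round spermatids against 3.22 and 1.83 in pachytene/diplotene, values that overlap. Of 28 genes of the meiotic divisions, 16 were marked in both tables, 7 in pachytene/diplotene only, among them Cdk1, Aurka and Aurkb, and 2 in round spermatids only, Cdc25c and Mastl. Of their 39 pairs 2 (5.13%) were called lower and 1 (2.56%) higher, both shares below those of all pairs, the last in the 3′ UTR of Fzr1, an activator of the anaphase-promoting complex.

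Of 33 piRNA pathway genes 16 were marked in both tables, 8 in pachytene/diplotene only and none in round spermatids only. Of 39 pairs 10 (25.6%) were called lower and 1 higher, with a median of -0.28. Over all pairs 8.71% were lower and 4.61% higher. With scaled columns 6 were lower, none higher, and the median was -0.30, with the calls of Mael, Exd1, 1 pair of Tdrkh and both of Henmt1 lost (adjusted p from 0.059 to 0.129, limma). Besides Mybl1 the lower pairs belonged to Tdrkh (3 pairs), Piwil1, Mael, Henmt1, Exd1 and Tdrd3. Tdrkh, which tethers Piwi proteins at mitochondria, had 5.64 and 4.41 and then 2.27 and 1.74 at its leading pair, a centred difference of -1.56 (SE 0.30, adjusted p = 0.0103, limma). Mael went from 5.64 and 5.87 to 2.93 and 3.02, and Piwil1, the Piwi protein of pachytene piRNAs, from 4.49 and 3.73 to 1.75 and 1.42. Henmt1, which methylates piRNA ends, was called lower in its 5′ UTR and higher at its stop codon. The stop codon pair overlapped by 116 nt, with ratios at the same sites of -1.26 and -1.28, near the median difference of all pairs. Its round spermatid peak, paired over 159 nt with another peak, was not called (centred difference -0.23, adjusted p = 0.596, limma). The Tudor genes Tdrd1, Tdrd5 and Tdrd12 and Rnf17 lost their listed peaks.

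Regulators of stored mRNA and translation were mixed. Of 65 genes 39 were marked in both tables, 11 in pachytene/diplotene only and 2 in round spermatids only, and of 111 pairs 10 (9.01%) were lower and 4 higher, close to the shares of all pairs. The polyadenylation regulator gene Cpeb2 had 2 lower pairs, the first from 7.29 and 6.60 to 3.11 and 3.95, which lost its call with scaled columns (adjusted p = 0.0622, limma). Boll, of the DAZ family, went from 5.97 and 5.00 to 2.81 and 2.77, also without a call when scaled (adjusted p = 0.101, limma). Papolb, a testis poly(A) polymerase gene, Cnot6, Khdrbs1 and Ptbp2 were lower too. Paip2b was the strongest of the higher calls, and 1 of the others, Cnot1, rests on an overlap of 1 nt, with ratios at the same sites of -1.42 and -1.70, near the median difference of all pairs. Dazl, which encodes a translational activator of germ cells, had 3.91 and 3.66 at its start codon in pachytene/diplotene and -0.62 and 0.38 in round spermatids. Ybx2, an mRNA storage protein gene, was also marked in pachytene/diplotene only.

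**Figure D5:**
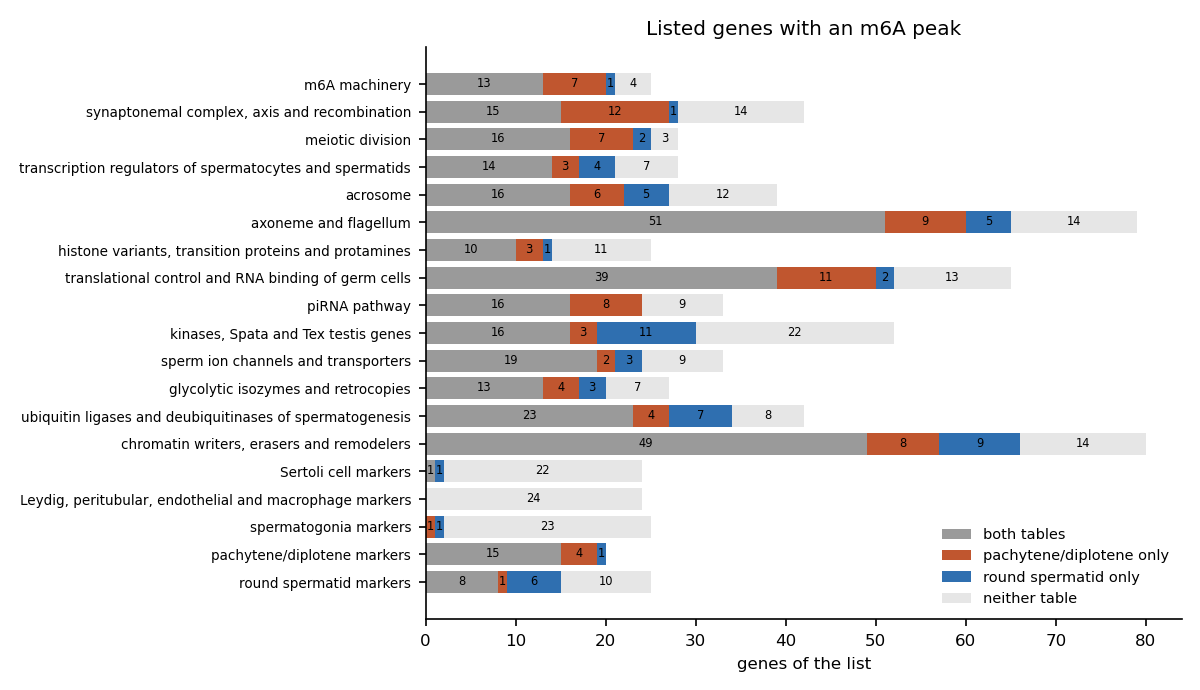
Number of genes of each list that were marked in both tables, in pachytene/diplotene only, in round spermatids only or in neither. The synaptonemal complex, axis and recombination list has 12 genes in pachytene/diplotene only and 1 in round spermatids only. The piRNA list has 8 and none. More genes in pachytene/diplotene only is also the direction over all marked genes. The list of kinases, Spata and Tex genes has the reverse (3 and 11). Over all 7938 genes marked in either table, 29.3% were in pachytene/diplotene only and 15.4% in round spermatids only.

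The histone, transition protein and protamine list had 10 of 25 genes marked in both tables, and 5 of 26 pairs (19.2%), on 4 genes, were called higher and 1 (3.85%) lower, against 4.61% and 8.71% of all pairs, with a median of 0.27 that came down to 0.02 with scaled columns. The protamine gene Prm1 (chromosome 16, 10796332 to 10796823) had 2.80 and 2.58 in pachytene/diplotene and 2.53 and 2.01 in round spermatids. That is a smaller fall than the median, a centred difference of 1.04 (SE 0.27, adjusted p = 0.0307, limma). Chd5, a chromatin remodeler of the histone-to-protamine exchange, had 2 higher pairs, the leading one at 3.01 and 2.39 and then at 3.31 and 2.79, values that overlap without centring. Cecr2, a remodeler gene, had 3.11 and 2.38 and then 2.24 and 2.27. The call for Brdt rests on an overlap of 7 nt, its ratios at the same sites were -1.41 and -1.71, and it was not called with scaled columns (adjusted p = 0.0682, limma). Psme4, the proteasome activator that acts on histones in spermatids, was called lower, from 6.85 and 6.76 to 3.61 and 3.51. Prm2, Tnp1 and Tnp2 had no peak in either table.

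Of 39 acrosome genes 16 were marked in both, 6 in pachytene/diplotene only, among them the Golgi gene Gopc at 5.83 and 5.09 against 0.97 and 2.33, and 5 in round spermatids only, among them the X-linked calyx gene Cylc1 and the sperm-egg fusion gene Izumo1, whose site at 1.03 and 1.01 in round spermatids was no lower in pachytene/diplotene (1.25 and 1.18). Of 23 pairs 1 (4.35%) was called each way, against 4.61% higher and 8.71% lower over all pairs. Dpy19l2, which anchors the acrosome to the nucleus, went from 7.82 and 7.68 to 4.73 and 5.09, a centred difference of -1.39 (adjusted p = 0.0108, limma) that fell to -0.19 with scaled columns (adjusted p = 0.735). The higher call, in Agfg1, rests on 1 nt of overlap, with ratios of -1.63 and -2.05.

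The 79 axoneme and flagellum genes had 51 in both tables, and of 171 pairs 2 (1.17%) were called higher and 1 (0.585%) lower, against 4.61% and 8.71% of all pairs. With scaled columns 5 were higher and none lower. Both higher calls, Hydin and Dnah6, were overlaps of 1 nt, with ratios from -0.65 to -1.46 at the same sites. Iqcg, of the axonemal dynein regulators, was marked in pachytene/diplotene only, at 5.79 and 5.16 against 0.89 and 0.73. Of 53 pairs on 33 ion channel and transporter genes 3 (5.66%) were called higher and 4 (7.55%) lower, close to the shares of all pairs. The lower calls were in Slc25a31, Slc9a8, Atp2b4 and Catsperg1, of which the last 2 overlap by 2 nt and 15 nt. With scaled columns 3 were higher and 1 lower. The start codon pair of Slc22a14, a sperm transporter gene, was called higher, at 3.13 and 2.35 and then 3.69 and 3.26 (centred difference 2.20, SE 0.26, adjusted p = 0.00149, limma). Atp1a4, the sodium pump subunit of sperm, had 2 higher pairs. Slc25a31, the germ cell ADP/ATP carrier gene, was lower, from 6.32 and 5.89 to 1.40 and 3.28, and lost its call with scaled columns (adjusted p = 0.0715, limma). Catsper1, of the sperm calcium channel, was marked in round spermatids only (3.11 and 2.92 against 2.29 and 1.78) and Catsper3 in pachytene/diplotene only (2.39 and 2.77 against 0.25 and 0.18).

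Of 52 kinases, Spata and Tex genes of the testis 11 were marked in round spermatids only, none of them X-linked, 3 in pachytene/diplotene only and 16 in both. The other 22 were marked in neither table. On the autosomes 13.9% of the genes marked in either table were in round spermatids only. At the strongest peak the round spermatid mean was the higher in 7 of the 11, and both replicates lay above both of pachytene/diplotene in 3. Tex55, of the sperm flagellum, led with 3.59 and 3.08 against 1.78 and 0.91 in pachytene/diplotene. Tex15, a meiotic and piRNA gene, had 2.72 and 1.83 against 1.31 and 0.58. Camk4, a calmodulin-dependent kinase gene of spermatids, had 2.57 and 2.25 against 2.40 and 2.15, values that overlap. Spata18 had 1.54 and 0.92 against 2.05 and 1.75 in pachytene/diplotene, the reverse of its listing. Among 42 ubiquitin genes 7 were marked in round spermatids only, of which 4 lie on the X (Cul4b, Huwe1, Ube2a and Usp9x). Of their 68 pairs 5 were higher and 5 lower (7.35% each), against 4.61% and 8.71% of all pairs. Of the higher calls 3 had small overlaps, of 28 nt in Usp34, 60 nt in Usp42 and 1 nt in Usp7, where no ratio at the same sites was above -0.85.

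Among 27 glycolytic isozymes and retrogenes, Gapdhs, the sperm glyceraldehyde phosphate dehydrogenase, was called higher, at 3.68 and 2.69 and then 2.79 and 3.10, values that overlap without centring. In this list 6 of 35 pairs (17.1%) were called lower and 1 (2.86%) higher, against 8.71% and 4.61% of all pairs. Of the 6 lower calls 5 were those of Tktl2, where some pairs shared a peak. The retrogene Pgk2 and the lactate dehydrogenase gene Ldhc were not called (centred differences 0.34 and 0.11). Of 160 pairs on 80 chromatin genes 15 (9.38%) were lower and 8 (5.00%) higher, close to the shares of all pairs. Brd3, a BET bromodomain gene, was lower at 4 pairs, the leading one from 5.68 and 4.28 to 1.20 and 1.01 (centred difference -2.41, SE 0.31, adjusted p = 0.00215, limma). Kmt2e, Smarca5, Kdm2a and the Polycomb genes Pcgf6, Eed and Suz12 were lower too, with the call lost under scaled columns for Smarca5, Eed and Suz12 (adjusted p = 0.0548, 0.222 and 0.521, limma). Kdm5a and Kmt2d had higher pairs. Of the 28 transcription regulators, 14 were marked in both tables. Among these, Sox30 was called lower (5.30 and 5.12, then 2.78 and 2.84) and lost its call with scaled columns (adjusted p = 0.278, limma), while Rfx2 and Tcfl5 were not called (adjusted p = 0.715 and 0.229). The spermatid activator gene Crem was listed in pachytene/diplotene only, at 3.15 and 3.09, yet its site stood at 3.11 and 2.25 in round spermatids.

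Of the genes in 1 table only, 2325 were in pachytene/diplotene, with 4042 peaks, and 1225 in round spermatids, with 1834 peaks. The former had mostly been marked before: 1277 were in all 3 earlier stages and 449 in none. Of the latter 293 were in all 3 and 688 in none. Being off a list did not always mean a low value. At 2494 of the 4042 peaks (61.7%) the round spermatid value was at or above the lowest listed there, and at 610 of the 1834 (33.3%) the pachytene/diplotene value was. For 90 genes of the former and 61 of the latter every value of the other stage was at or below 0.

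H3f3b, a gene of the replacement histone H3.3 (chromosome 11, 116021961 to 116026039), was the strongest of pachytene/diplotene only. Its start codon peak stood at 8.35 and 8.11, and the same site at 0.03 and 0.09 in round spermatids, the widest gap of the genes named here. Tbc1d12 had 7.16 and 7.47 against 2.00 and 3.89, and Pole4, a DNA polymerase epsilon subunit gene, 6.74 and 6.58 against 0.81 and 2.57. Krit1, Ggnbp2, the transcription factor gene Yy1, Cyb5b and Rnf227 had means of 6.38 to 6.68. Their round spermatid means at the same sites were 1.75, 3.18, 2.12, 1.15 and 0.18. By number of peaks, the homeobox gene Zfhx3 led with 14, then Trrap, a scaffold of histone acetyltransferases, and Mlh3 with 9 each.

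In round spermatids only, the phosphatase gene Cdc14a led with a 5′ UTR peak at 4.45 and 4.74 against 2.38 and 1.86, before the X-linked Cul4b. Smpd2, a neutral sphingomyelinase gene (chromosome 10, 41487172 to 41490370), had 3.92 and 3.97 against 0.42 and 0.32, and the urea transporter gene Slc14a2 had 3.78 and 3.98 against 0 and 1.49. These 3 genes did not overlap between the stages. Tmem63c, Ccdc6 and Mical3 had means of 4.13, 3.81 and 3.67, with pachytene/diplotene means of 2.69, 1.85 and 2.64. Amotl1 and Tnrc6b had the most peaks, 8 each, and Znrf3 had 7. Tnrc6b, which encodes a partner of Argonaute proteins, had 2.91 and 2.64 at its leading peak against 2.10 and 2.59 in pachytene/diplotene, a small difference for a gene listed in 1 table only.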

How the data were processed

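Per the submitters' processing notes, TopHat2 2.0.14 and mm10 were used for the m6A and input libraries. Not given in the sources used here are the peak caller, the threshold for a peak and any scaling across libraries. Each peak has, per the file headers, a RefSeq transcript, start, end, location and, per replicate, a log2 enrichment and a log2 ratio of enrichments, as the authors deposited them. The comparison stage of the ratio is not named; enrichment minus ratio matched the other stage's values (r of 0.933 and 0.935 at pairs), and the deposited overlap label matched at all 15656 and 10950 peaks. Mapped reads and their percent per library are from the authors' deposited read table. The depth behind a peak is unknown.

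Symbols, chromosomes and gene coordinates came from a RefSeq table of GRCm38.p6 (26273 peaks matched by gene ID, 301 by accession, 23 by synonym, 9 not). Peak positions are on transcripts. Columns were centred on their median over the 8894 pairs and the 2 against 2 design was tested in R 4.3.3 by eBayes of limma 3.58.1, two-sided, adjusted over all pairs (Benjamini-Hochberg, threshold 0.05). No pair held a 0. Replicates correlated at r of 0.887 in pachytene/diplotene and 0.842 in round spermatids. On simulated data of this comparison (8894 pairs) limma recovered 63.5%, 96.5% and 100.0% of log2 changes of 1, 1.5 and 2. It made 31 false calls beside 520 true ones. The simulation gave all pairs of a stage the same spread and no shared peaks, so recovery in the real pairs may differ. Alternatives covered scaling, overlap, filters, the replicate block, the deposited ratio and leaving out each replicate. Gene lists, one-table genes and locations were described without a test.

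The members and lists were chosen with earlier results of these data known. The naming rule took the 8 highest and 8 lowest called pairs with no overlap between stages, the 8 strongest genes and 3 with most peaks in each table only, per list up to 4 called members and up to 3 in each table only, and 27 fixed genes. Further X- and Y-linked genes and list members were named after their values were seen. No nucleotide sequence of the peaks was used here. One member of the recombination list is not reported here.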

Additional observations from a re-analysis of the deposited data

How the results depend on the processing

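Of the pairs, 410 were called higher and 775 lower. Higher calls numbered 222 with each peak used once, 255 with an overlap of at least 0.5 of the shorter peak and 6 without centring. The deposited ratio gave 266 at every pachytene/diplotene peak and 1745 at every round spermatid peak. Leaving out 1 replicate gave 137 (without round spermatid replicate 1) to 397, and 180 without round spermatid replicate 2. Lower calls numbered 7902 without centring, 443 with scaled columns, 333 with means of 2 or more in both stages and 1176 by the ratio at every round spermatid peak. Leaving out 1 replicate gave 351 (without round spermatid replicate 1) to 693. In these fits the stage with 1 sample was assumed to vary like the other. The replicate block gave 618 higher and 972 lower calls, but the samples share only a number: deviations of equal number correlated at 0.0173. Chosen after seeing the data were the ratio at paired pachytene/diplotene peaks (199 and 488), at paired round spermatid peaks (255 and 487) and quantile normalisation (426 and 474). A trend in the prior variance (507 and 691) and keeping zeros (410 and 775) moved neither count by over 1.5 times.

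Genes in pachytene/diplotene only numbered 4588, in round spermatids only 386 and in both 2021 with means of 2 or more. With the higher of the lowest listed values the first 2 were 3624 and 722. Start codon pairs had 0% higher and 91.6% lower calls without centring, 10.3% lower with scaled columns, and 1.44% and 17.3% higher by the ratio at every pachytene/diplotene and every round spermatid peak. 3′ UTR pairs had 0% higher and 84.5% lower calls without centring, 5.05% higher with each peak used once, 4.67% lower with scaled columns, and 3.84% and 20.7% higher by those ratios.

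Of 70 named pairs 55 kept direction and call with scaled columns and 15 lost the call. Leaving out 1 replicate, calls were lost in 21 without round spermatid replicate 1, in 15 without its replicate 2 and in 11 without either pachytene/diplotene replicate. Without centring 18 changed sign: Prrc2a -0.58, Fzr1 -0.46, Brdt -0.59, Agfg1 -0.28, Hydin -0.20, Dnah6 -0.50, Prm1 -0.42, Cecr2 -0.49, Tex21 -0.19, Atp1a4 -0.0812, Gapdhs -0.24, Usp7 -0.0613, Usp42 -0.11, Ythdf2 -0.62, Fto -0.93, Hspa2 -1.05, Pgk2 -1.12 and Ldhc -1.34. Leaving out 1 replicate, Rfx2 ranged from -0.379 to 0.0510 and Ldhc from -0.0343 to 0.264, with the sign changed without pachytene/diplotene replicate 2 and, for Ldhc, without round spermatid replicate 1. The cause of these shifts was not tested, beyond the general fall that centring removes. Where only 1 table lists a peak, the depth behind it is unknown, so small differences between listed and unlisted sites were not detectable.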

Other observations

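Genes related by descent to X-linked genes of round spermatids, chosen after their values were seen, differed in where they were marked. The autosomal Cul4a, relative of Cul4b, carried 4 peaks in pachytene/diplotene only, the strongest at 3.18 and 2.94 against 0.36 and 1.08 in round spermatids. Ube2b, relative of Ube2a, was marked in both, at 4.93 and 4.25 and then at 1.84 and 2.00, and was called lower (-1.21). Hnrnph1, relative of the X-linked Hnrnph2, had a lower pair too, from 5.21 and 5.41 to 2.15 and 1.93, while Hnrnph2 was marked in round spermatids only, at 2.81 and 3.09 against 2.96 and 1.37. The 5 pairs of Cstf2t, relative of Cstf2, were not called, and Upf3a, relative of Upf3b, had 2 of 3 pairs called higher, 1 of them on an overlap of 8 nt.

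On genes marked in both stages, 3485 pachytene/diplotene peaks on 2107 genes and 1168 round spermatid peaks on 887 genes had no partner. The former had a median of 2.48 against 3.17 for paired peaks, and the latter 1.36 against 1.73. In 22 of the 4287 genes with pairs, at least 1 pair was called higher and another lower. Some of these calls rest on edge overlaps. In Smc5 the higher pair overlapped by 3 nt and held the same round spermatid peak as the lower pair. The ratios at the sites of that higher pair were -1.63 and -2.73. In other genes both overlaps were wide, as in St7l, with 182 nt for the lower and 146 nt for the higher pair.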
